A study of Mus musculus with 12 samples.

Results

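Low-level genes that lie higher with a Myc transgene form a set of 9 genes: Chst7, Rassf6, Car12, Epop, Pcsk4, Ankrd13b, Ltbp4, Fstl1 and Tmem255a. They were listed by name, out of 18194 genes with a single symbol on the array. By the description of the set, the members were selected on low levels and on higher levels with Myc. Which contrast was used is not stated. Their difference between Myc and wild type is therefore treated as used in the choice and given as a description, without a test. Each gene was read from its probe set of highest mean, and all 9 were found. Gene expression was measured in mouse bone marrow cells that were positively selected with magnetic beads for B220 (CD45R), which marks cells of the B lineage, with 1 Affymetrix MOE430 2.0 array for each of 12 samples. The groups hold 3 arrays each: Myc TTP (both the Eμ-Myc and the Eµ-TTP-1 transgene, labelled precancerous), Myc (Eμ-Myc alone, labelled precancerous), TTP (Eµ-TTP-1 alone) and wild type. All are littermates 4 to 6 weeks old on a 94% C57BL/6 background, and the samples are labelled biological replicates. The Eμ enhancer of the immunoglobulin heavy chain directs the transgenes to B-lineage cells, and TTP (tristetraprolin, gene Zfp36) is a protein that binds AU-rich mRNAs and promotes their decay.

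Myc is a transcription factor that pairs with Max, binds E-box DNA motifs and raises genes of ribosome production, nucleotide synthesis and growth. In Eμ-Myc mice its forced expression enlarges the pool of cycling B-cell precursors before lymphoma appears. The 9 genes belong to no single pathway. They encode secreted and matrix proteins (Ltbp4, Fstl1), enzymes of the secretory pathway and the cell surface (Chst7, Car12, Pcsk4), a membrane protein (Tmem255a), and proteins of signalling, membrane traffic and chromatin (Rassf6, Ankrd13b, Epop).

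Promoter windows of 300 bases, most of them before the start site, were taken from RefSeq (build GRCm38.p6) for 7 of the 9 genes, with 10 entries in all. Epop and Pcsk4 are named only. The canonical E-box CACGTG, which reads the same on both strands, was in 0 of the 10 windows and in 7.15% of the 32851 windows of the table. Related motifs were added after that result was seen. CACGCG, searched on both strands, was in 3 of the 10 windows and in 9.27% of all. These are 2 distinct matches, in Ankrd13b and Ltbp4, since a pair of overlapping Ltbp4 windows holds the same one. CATGCG was in 0 of the 10 windows and 6.5% of all. All 10 windows had a GC content above the median of all windows (52.7%), with a median of 64.2%, and for 8 of 10 the CpG ratio (observed over expected) was above the median of all, 0.38. A match in these letters is a description and no site. The 3 windows below are shown because the first pair holds a CACGCG match, in capitals (its reverse complement in Ankrd13b), and because Chst7, with no match, is one of the 3 genes whose Myc TTP arrays all lay below the Myc arrays. The Ltbp4 window is chr7:27333599-27333898 on the minus strand, with its match starting at base -117, and another Ltbp4 entry overlaps it. The Ankrd13b window is chr11:77489629-77489928 on the minus strand, with its match at base -139, and the Chst7 window is chrX:20059320-20059619 on the plus strand.
Ltbp4: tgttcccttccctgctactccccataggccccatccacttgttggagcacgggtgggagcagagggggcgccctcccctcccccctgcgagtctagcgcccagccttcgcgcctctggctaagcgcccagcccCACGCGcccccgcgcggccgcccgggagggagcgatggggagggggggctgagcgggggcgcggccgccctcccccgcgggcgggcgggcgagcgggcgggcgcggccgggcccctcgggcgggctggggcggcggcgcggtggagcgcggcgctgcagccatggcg
Ankrd13b: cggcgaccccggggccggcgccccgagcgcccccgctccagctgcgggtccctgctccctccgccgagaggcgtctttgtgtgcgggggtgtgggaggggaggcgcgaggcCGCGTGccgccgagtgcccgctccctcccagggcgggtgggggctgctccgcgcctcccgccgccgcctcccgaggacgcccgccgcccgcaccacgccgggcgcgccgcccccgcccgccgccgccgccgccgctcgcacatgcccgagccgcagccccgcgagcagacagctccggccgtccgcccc
Chst7: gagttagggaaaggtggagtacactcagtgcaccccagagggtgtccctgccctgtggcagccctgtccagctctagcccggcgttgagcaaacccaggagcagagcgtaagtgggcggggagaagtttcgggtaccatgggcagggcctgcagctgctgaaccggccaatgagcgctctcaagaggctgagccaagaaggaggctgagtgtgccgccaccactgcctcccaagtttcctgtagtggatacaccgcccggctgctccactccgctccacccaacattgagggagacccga

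Some arrays go against their labels, which touches every result below. Myc intensity was 3620, 6800 and 10600 on the Myc TTP arrays and 13400, 15500 and 8160 on the Myc arrays, against 1060, 1340 and 11400 on the TTP arrays and 805, 819 and 6410 on the wild-type arrays. The arrays labelled TTP 3 and wild type 3 thus lay among the arrays labelled with the Myc transgene. For Zfp36, the gene of TTP, log2 intensity was 7.47, 8.62 and 9.18 on Myc TTP, 9.28, 9.34 and 10 on Myc, 9.88, 9.89 and 9.78 on TTP and 10.70, 9.80 and 9.84 on wild-type arrays. Its mean was not higher on the arrays labelled with the TTP transgene than on their counterparts, and whether its probe set reads the transgene's RNA is not given in the sources used here. Array names below are those of the labels, and every direction drawn from TTP rests on them. On 3 arrays, Myc TTP 3, TTP 3 and wild type 3, Xist was above the floor together with a Y-linked gene above a log2 of 6. Of the 9 genes, Chst7 and Tmem255a lie on chromosome X, and the part of sex in their levels was not tested. The mean log2 level of 10 granulocyte markers was 11.14 to 12.26 on Myc TTP arrays, 6.88 to 12.55 on Myc arrays, 12.21 to 14.02 on TTP arrays and 12.83 to 13.68 on wild-type arrays. The low end of the Myc range lay on Myc 1 (6.88) and Myc 2 (8.41), against 12.55 on Myc 3. For 10 B-lineage markers it was 12.15 to 12.33, 11.47 to 12.55, 12.35 to 13.32 and 12.72 to 13.40 in the same order, with 11.47 on Myc 1 and 11.65 on Myc 2, and all 10 were above the floor on every array. Among them Vpreb1 (8.37 and 8.30 on Myc 1 and 2) and Igll1 (9.27 and 9.22) fell furthest below the other arrays. Most others fell by less, and Cd22 (11.28 and 11.59) was above every Myc TTP array. Myc 1 and Myc 2 are also the arrays on which 8 of the 9 genes were highest. Neither the marker levels nor the mismatch of labels was tested for its part in the results. In samples of many cells, fewer cells of a type and less RNA per cell cannot be told apart.

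Most of the 9 genes were either near a floor or well above it on the same arrays. A log2 intensity of 4 served as a floor for signal. On the arrays labelled TTP 1 and TTP 2, 5 and 4 of the 9 genes were above it, and on wild type 1 and 2, 3 were on each. On each of the other 8 arrays between 7 and 9 were above it, TTP 3 and wild type 3 included. On the probe sets used, the 4 lowest values lay on TTP 1, TTP 2, wild type 1 and wild type 2 for 8 of the 9 genes (13.5% of 10287 tested genes show this order), Tmem255a being the exception. The 2 highest values lay on Myc 1 and Myc 2 for 8 of the 9, Pcsk4 being the exception (1.94% of tested genes). All 9 passed the filter for testing, a log2 above 4 on at least 3 arrays. Those that passed through their high arrays alone had to differ, so passing says nothing further.

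**Figure D1:**
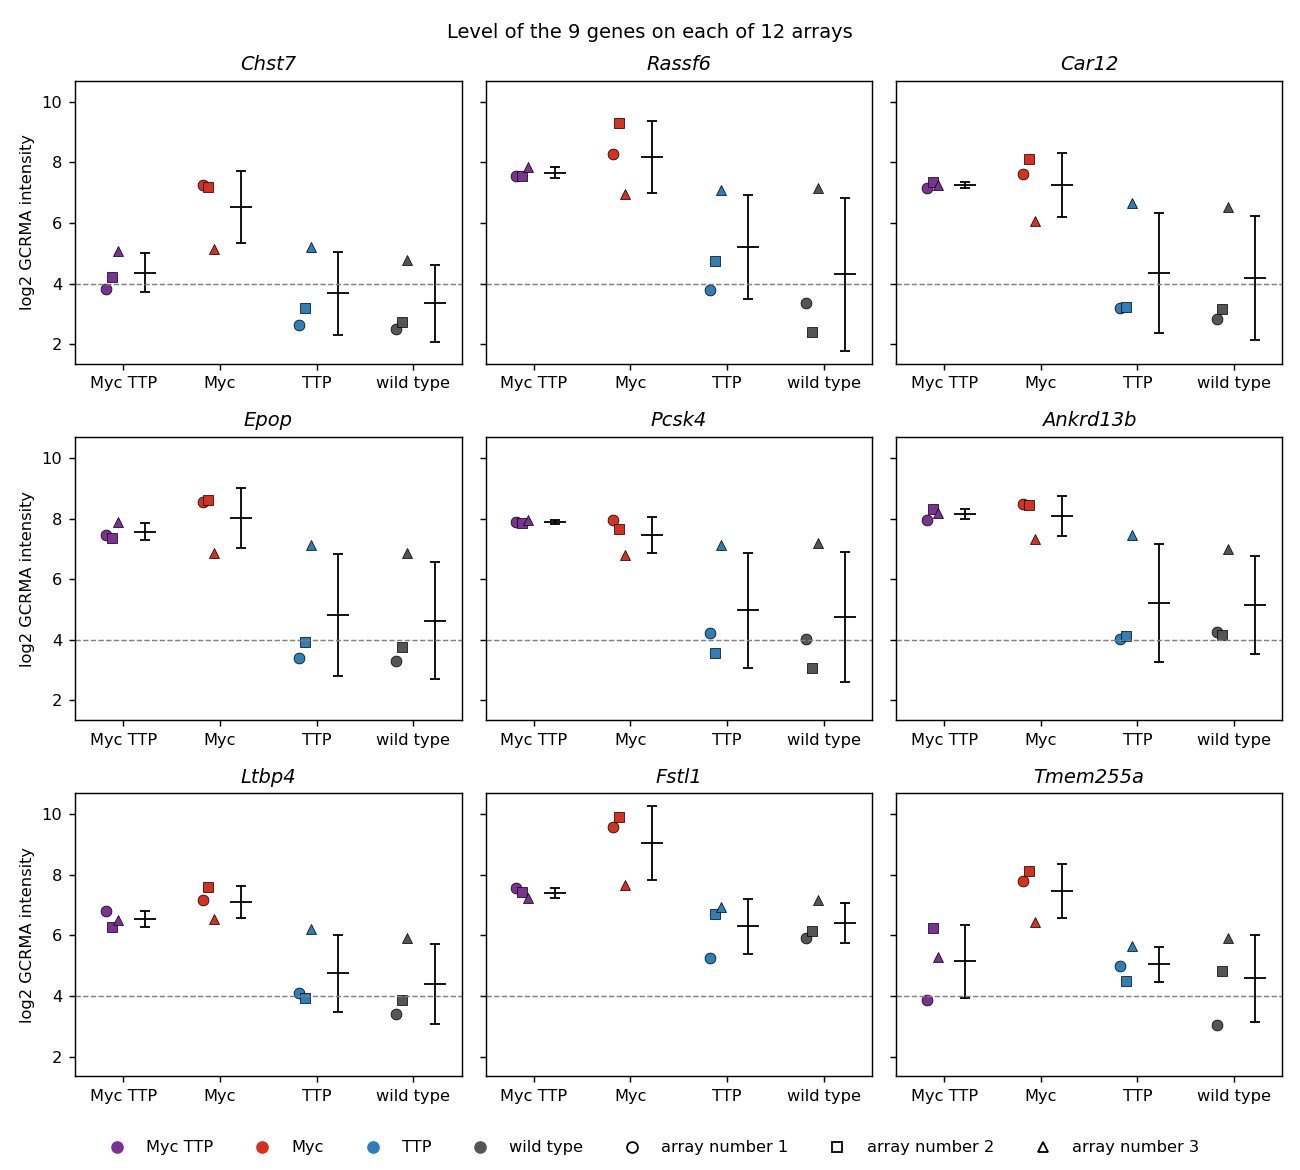
Log2 GCRMA intensity (y axis) of the 9 genes on the 12 arrays by group (x axis), with the array number as marker shape, the group mean ± SD (n = 3) beside the points and the floor of 4 as a dashed line. For 8 genes the arrays numbered 1 and 2 of TTP and wild type lie below all others, while TTP 3 and wild type 3 lie near the Myc and Myc TTP arrays.

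Rassf6, a protein with a Ras-association domain that is linked to apoptosis and Hippo signalling, had the widest range. Its log2 intensity was 7.55, 7.56 and 7.86 on Myc TTP arrays and 8.27, 9.31 and 6.96 on Myc arrays, against 3.78, 4.75 and 7.09 on TTP arrays and 3.35, 2.40 and 7.17 on wild-type arrays. Myc 3 was below wild type 3, so those groups overlapped, whereas every Myc TTP array exceeded every TTP array. The Myc arrays averaged 3.88 ± 1.15 log2 units above the wild-type arrays (SE of the fit).

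Car12 and Pcsk4 had mean levels on Myc TTP arrays that were at or above those on Myc arrays. Car12, a carbonic anhydrase of the cell surface that turns carbon dioxide into bicarbonate, stood at log2 7.17, 7.35 and 7.25 on Myc TTP and 7.60, 8.10 and 6.06 on Myc arrays. On TTP arrays it was 3.20, 3.22 and 6.65, and on wild-type arrays 2.83, 3.16 and 6.53. Without the arrays numbered 3, neither TTP nor wild type reached the floor, and Myc 3 was below both TTP 3 and wild type 3. Pcsk4, a proprotein convertase known mainly from germ cells of the testis, was at log2 7.88, 7.84 and 7.94 on Myc TTP arrays and 7.95, 7.64 and 6.80 on Myc arrays. It was 4.22, 3.57 and 7.13 on TTP and 4.04, 3.07 and 7.18 on wild-type arrays. Its 3 Myc TTP values were the closest of any group and gene here (7.89 ± 0.05, SD, n = 3).

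Epop and Ankrd13b kept separate Myc and wild-type groups. Epop, which binds Elongin and Polycomb repressive complex 2 in mouse embryonic stem cells, was at log2 7.47, 7.35 and 7.88 on Myc TTP, 8.54, 8.62 and 6.87 on Myc, 3.40, 3.92 and 7.12 on TTP and 3.31, 3.75 and 6.85 on wild-type arrays. Myc 3 exceeded wild type 3 by little, so the separation is narrow. Ankrd13b, an ankyrin-repeat protein that binds ubiquitin chains on internalised membrane receptors, was at log2 7.96, 8.31 and 8.18 on Myc TTP, 8.47, 8.46 and 7.32 on Myc, 4.03, 4.13 and 7.47 on TTP and 4.25, 4.17 and 7.01 on wild-type arrays. It was above the floor on all 12 arrays, although TTP 1 and 2 and wild type 1 and 2 lay close to it.

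The matrix genes differed in their low state. Ltbp4 binds latent TGF-β and takes part in elastic fibre assembly. It was at log2 6.80, 6.28 and 6.52 on Myc TTP, 7.18, 7.58 and 6.55 on Myc, 4.10, 3.93 and 6.22 on TTP and 3.40, 3.87 and 5.90 on wild-type arrays. Fstl1, a secreted glycoprotein related to follistatin and SPARC, was above the floor on every array. Its log2 values were 7.56, 7.43 and 7.22 on Myc TTP, 9.56, 9.92 and 7.67 on Myc, 5.27, 6.71 and 6.93 on TTP and 5.93, 6.13 and 7.16 on wild-type arrays. Myc 1 and 2 stood alone at the top, more than 1 log2 unit above all others, and a second Fstl1 probe set gave the same top pair, at 9.48 and 9.78 on Myc 1 and 2. On that probe set Myc TTP was at 6.28, 7.02 and 7.20 and TTP at 4.82, 6.30 and 7.48, so these groups overlapped. Myc TTP 1 also lay just below TTP 2 there, unlike on the probe set used.

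Chst7 and Tmem255a were highest on the Myc arrays numbered 1 and 2, and their Myc TTP arrays overlapped with their TTP arrays. Chst7 transfers sulfate to carbohydrate chains such as chondroitin. Its log2 intensity was 3.81, 4.21 and 5.06 on Myc TTP and 7.25, 7.19 and 5.15 on Myc arrays, against 2.63, 3.19 and 5.22 on TTP and 2.50, 2.75 and 4.79 on wild-type arrays. All 3 Myc TTP values lay within the range of the TTP arrays, and TTP 3 was above each of them. Tmem255a, a multi-pass membrane protein of little known function, was at 3.88, 6.26 and 5.30 on Myc TTP, 7.79, 8.13 and 6.44 on Myc, 4.99, 4.50 and 5.66 on TTP and 3.06, 4.81 and 5.90 on wild-type arrays. Of its 3 other probe sets, 2 passed the floor on at least 3 arrays, and both were highest on Myc 1 (5.56 and 5.46) and Myc 2 (5.75 and 5.34). Elsewhere both lay near the floor. On the first, Myc 3 (4.15) was below Myc TTP 2 and 3 (4.21 and 4.32). On the second, every Myc TTP array (4.08, 4.08 and 4.25) lay above every TTP array (3.64, 3.74 and 3.78). The place of Myc TTP against Myc and TTP for Tmem255a thus depends on the probe set. The 2 other Car12 probe sets were below the floor on every array, so the Car12 values rest on 1 probe set.

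Between Myc and wild type, the contrast treated as having chosen the genes, the median difference of the 9 was 2.94 log2 units, beside -0.21 over all 10287 tested genes. The differences ran from 2.64 (Fstl1) to 3.88 (Rassf6). Chst7, whose wild-type mean lay below the floor, was at least 5.78-fold higher, computed against the floor. All 3 Myc arrays exceeded all 3 wild-type arrays for 6 of the 9 genes, with 3.49% of tested genes in that order. For Rassf6, Car12 and Pcsk4 the groups overlapped, each time through wild type 3 and Myc 3. The array labelled wild type 3 sets the size: without it the median was 3.91, and without wild type 1 it was 2.41. Without TTP 3 and wild type 3, a choice made with their Myc level known, Rassf6 was at least 18.2-fold, Epop at least 16.1-fold and Pcsk4 at least 11-fold higher on Myc than on wild-type arrays.

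Myc TTP over TTP compares other arrays, though it is not known whether the choice of genes also used them. No gene passed there: at a Benjamini-Hochberg adjusted p under 0.05 limma called 0 of 10287 genes (0%), while 3707 had an unadjusted p under 0.05. Among the 9 genes 5 had an unadjusted p under 0.05, and all 9 differences were above 0, with a median of 2.45 beside 0.09 over all tested genes. Ankrd13b was at 8.15 ± 0.18 on Myc TTP and 5.21 ± 1.96 on TTP arrays (SD, n = 3), a difference of 2.94 ± 0.93 (limma adjusted p = 0.0665). Pcsk4 was 2.91 ± 1.04 higher (limma adjusted p = 0.0818) and Car12 2.90 ± 1.08 higher (limma adjusted p = 0.0904). At the other end stood Chst7, with 0.68 ± 0.82 (limma adjusted p = 0.559), and Tmem255a, with 0.10 ± 0.77 (limma adjusted p = 0.936). On the probe sets used, all 3 Myc TTP arrays exceeded all 3 TTP arrays for 7 of the 9 genes, all but Chst7 and Tmem255a, and for 30.6% of tested genes. A second probe set of Fstl1 overlapped here, and another of Tmem255a did not.

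The calls in Myc TTP over TTP turned on the arrays labelled TTP 3 and wild type 3. Without TTP 3, limma called 3951 of 10287 genes, 1905 of them higher (18.5%), and 6 of the 9, all higher: Rassf6, Car12, Epop, Pcsk4, Ankrd13b and Ltbp4, with adjusted p from 0.0131 to 0.0421. Without wild type 3, which is outside this contrast and alters only the shared spread, 1907 genes, 1716 of them higher (16.7%), and 5 of the 9 were called. Without both, 4412 genes, 2158 of them higher (21%), and 6 of the 9 were called, with Ankrd13b at 4.07 ± 0.34 (limma adjusted p = 0.000482) and Car12 at least 9.56-fold higher. Fstl1 (1.41 ± 0.62, limma adjusted p = 0.0881), Chst7 (1.45 ± 0.61, limma adjusted p = 0.0797) and Tmem255a (0.40 ± 0.75, limma adjusted p = 0.682) did not pass without both. Without the 4 arrays numbered 3, 8 of the 9 were called higher, all but Tmem255a, and 23.7% of all tested genes.

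**Figure D2:**
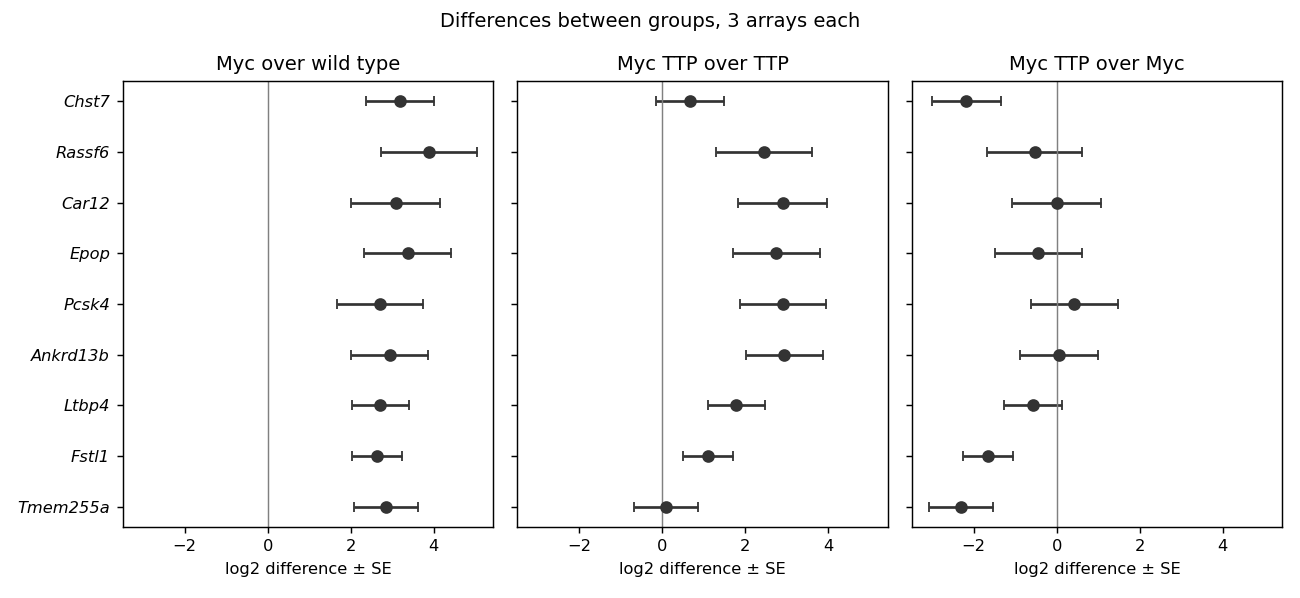
Log2 difference ± SE of the fit (x axis) for each gene (rows) in 3 contrasts of 3 arrays against 3. Myc over wild type lies between 2.64 and 3.88 for all 9 genes, while in Myc TTP over TTP Chst7 (0.68) and Tmem255a (0.10) are the lowest, and these genes and Fstl1 are the lowest in Myc TTP over Myc.

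On the arrays labelled Myc TTP, Chst7, Fstl1 and Tmem255a had lower levels than on the arrays labelled Myc, and none passed the test. On the probe sets used, all 3 Myc TTP arrays were below all 3 Myc arrays for these 3 of the 9 genes, and for 1.41% of tested genes. Another Tmem255a probe set did not keep this order. Chst7 was at 4.36 ± 0.64 on Myc TTP and 6.53 ± 1.19 on Myc arrays, a difference of -2.17 ± 0.82 (limma adjusted p = 0.212). Tmem255a was at 5.15 ± 1.20 on Myc TTP and 7.45 ± 0.89 on Myc arrays (-2.31 ± 0.77, limma adjusted p = 0.186), and Fstl1 at 7.40 ± 0.17 and 9.05 ± 1.21 (-1.65 ± 0.60, limma adjusted p = 0.203). The median of the 9 was -0.53, beside 0.27 over all tested genes. For the other 6 genes the groups overlapped. Of 10287 genes 0 (0%) passed in limma, and 1966 had an unadjusted p under 0.05, the 3 named among them. This contrast shares the Myc arrays with the one treated as having chosen the genes. Myc itself was -0.90 ± 0.95 (limma adjusted p = 0.576) in the same contrast. Zfp36 was -1.12 ± 0.39 (limma adjusted p = 0.197), with all 3 Myc TTP arrays below all 3 Myc arrays. Myc 1 and Myc 2, which were highest for these 3 genes, also had the lowest mean granulocyte, erythroid and B-lineage marker levels of all arrays. For the B lineage this was widest in Vpreb1 and Igll1, as given above. The part of those cells in the differences was not tested. Without the 4 arrays numbered 3, limma called 59 genes lower (0.574% of 10287) and 1455 higher. Of the 9 genes 4 were called, all lower: Chst7 at -3.21 ± 0.29 (adjusted p = 0.000288), Fstl1 at -2.25 ± 0.40 (adjusted p = 0.00759), Tmem255a at -2.89 ± 0.73 (adjusted p = 0.0325) and Epop at -1.17 ± 0.27 (adjusted p = 0.025). In that setting Myc was also called lower, at -1.53 ± 0.25 (limma adjusted p = 0.00529).

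On the arrays labelled as without the Myc transgene, TTP and wild type overlapped for all 9 genes. The median difference was 0.21, beside -0.06 over all tested genes. TTP 3 and wild type 3 had high values for most of these genes, so overlap of the full groups was nearly fixed by them. Among the arrays numbered 1 and 2, TTP lay above wild type for Rassf6, Car12 and Ltbp4 and below it for Ankrd13b, all near or below the floor. All 3 TTP arrays exceeded all 3 wild-type arrays for 0 of the 9 genes, and for 0.603% of tested genes. Of 10287 genes 0 (0%) passed in limma, and 149 had an unadjusted p under 0.05, 0 of the 9 among them. It shares the wild-type arrays with Myc over wild type, and without TTP 3 the median was -0.44. The interaction is the Myc TTP over Myc difference minus the TTP over wild type difference. It thus holds Myc over wild type, the contrast treated as having chosen the genes, with a minus sign. That choice pushes the 9 genes below 0 in the interaction, so their values and calls there are a description. In limma 0 of 10287 genes (0%) passed, while 1351 had an unadjusted p under 0.05. Tmem255a was at -2.76 ± 1.09 (limma adjusted p = 0.359), Chst7 at -2.51 ± 1.16 (limma adjusted p = 0.386) and Fstl1 at -1.54 ± 0.84 (limma adjusted p = 0.42), beside a median of 0.34 over all tested genes. Without the 4 arrays numbered 3 limma called 9 genes below 0 (0.0875% of 10287) and 226 above. Of the 9 genes Chst7 alone was called, below 0, at -3.50 ± 0.42 (limma adjusted p = 0.00723).

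The order of the group means followed from these contrasts. For Chst7, Rassf6, Epop, Ltbp4, Fstl1 and Tmem255a Myc was highest and Myc TTP next, and for Car12, Pcsk4 and Ankrd13b Myc TTP was highest and Myc next. TTP stood above wild type in mean for every gene but Fstl1. Myc and Myc TTP means differed by less than the larger of their SDs for Rassf6, Car12, Epop, Pcsk4 and Ankrd13b, and TTP and wild-type means did so for all 9 genes. From Myc TTP to TTP the step was within the larger SD for Chst7 and Tmem255a.

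The level of each gene was then set against the Myc level of its array. A slope on log2 Myc was fitted within the 4 groups, so that group means did not enter. Over all genes limma called 4004 of 10286 slopes (38.9%), 1088 upward (10.6%) and 2916 downward (28.3%), and 8 of the 9 genes were called, all upward. The split over all genes depends on scaling, with 27.2% of calls upward here, 53.1% after quantile normalization and 52.3% with a common array median, and all 9 genes were called under both. Whether array-level Myc also guided the choice of the genes is not known, so the count describes them and supports nothing. The steepest were Rassf6 at 1.10 ± 0.16 (limma adjusted p = 0.00184) and Car12 at 1.06 ± 0.12 (limma adjusted p = 0.00129) log2 units per log2 unit of Myc. Epop (1.05 ± 0.11), Pcsk4 (1.00 ± 0.13), Ankrd13b (0.94 ± 0.09), Chst7 (0.78 ± 0.11), Ltbp4 (0.65 ± 0.10) and Tmem255a (0.54 ± 0.18) followed, with limma adjusted p of at most 0.0366. Fstl1 was at 0.37 ± 0.15 and did not pass (limma adjusted p = 0.0761).

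These slopes rest on the arrays labelled TTP 3 and wild type 3. Without both, 0 of 10286 slopes passed in limma, while 1445 had an unadjusted p under 0.05, 3 of the 9 genes among them. The 9 slopes were still above 0 then, from 0.13 (Ltbp4) to 1.25 (Chst7, limma adjusted p = 0.204). Without TTP 3 alone 302 of 10286 slopes were called, 212 of them upward (2.06%), with 6 of the 9 genes among those upward. Ltbp4 was then at 0.62 (adjusted p = 0.0567). Tmem255a did not pass without any 1 of 6 arrays, Myc TTP 1, Myc 2, TTP 2, TTP 3, wild type 1 and wild type 3 (limma adjusted p from 0.0508 to 0.17). Fstl1 passed without Myc 3 (adjusted p = 0.0374) or TTP 2 (limma adjusted p = 0.0416).

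**Figure D3:**
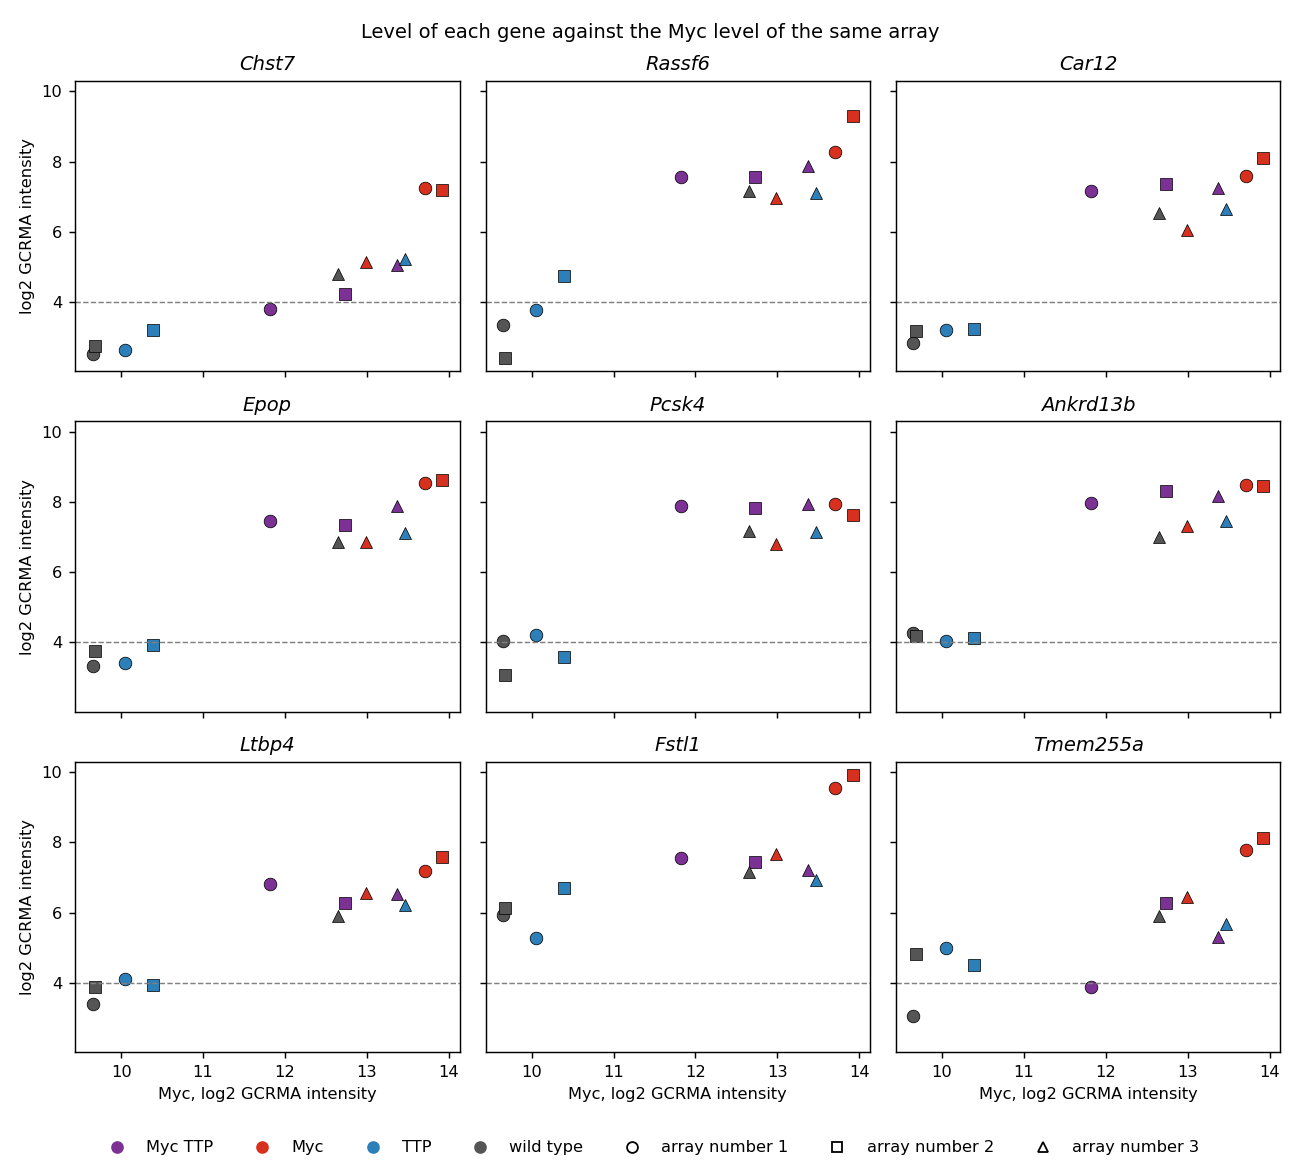
Log2 GCRMA intensity of each gene (y axis) against that of Myc on the same array (x axis), by group (colour) and array number (marker shape), with the floor of 4 dashed. TTP 3 and wild type 3 lie with the Myc-transgenic arrays at a log2 Myc of 13.47 and 12.65, and Myc TTP 1, at 11.82, has most genes as high as arrays of higher Myc.

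On the arrays of high Myc the genes differed in order. On Myc TTP 1, which had the lowest Myc of the Myc-transgenic arrays (11.82), Ankrd13b (7.96), Pcsk4 (7.88) and Ltbp4 (6.80) were already higher than on TTP 3, where Myc was 13.47 and these genes were at 7.47, 7.13 and 6.22. So were Rassf6 (7.55 against 7.09), Car12 (7.17 against 6.65), Epop (7.47 against 7.12) and Fstl1 (7.56 against 6.93). Chst7 and Tmem255a were lower on Myc TTP 1 (3.81 and 3.88) than on TTP 3 (5.22 and 5.66). Across the 12 arrays the correlation with the mean standardised profile of the other 8 genes was highest for Epop (Pearson r = 0.984) and lowest for Tmem255a (r = 0.747). These are descriptions over arrays that share the transgene and the label mismatch.

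**Figure D4:**
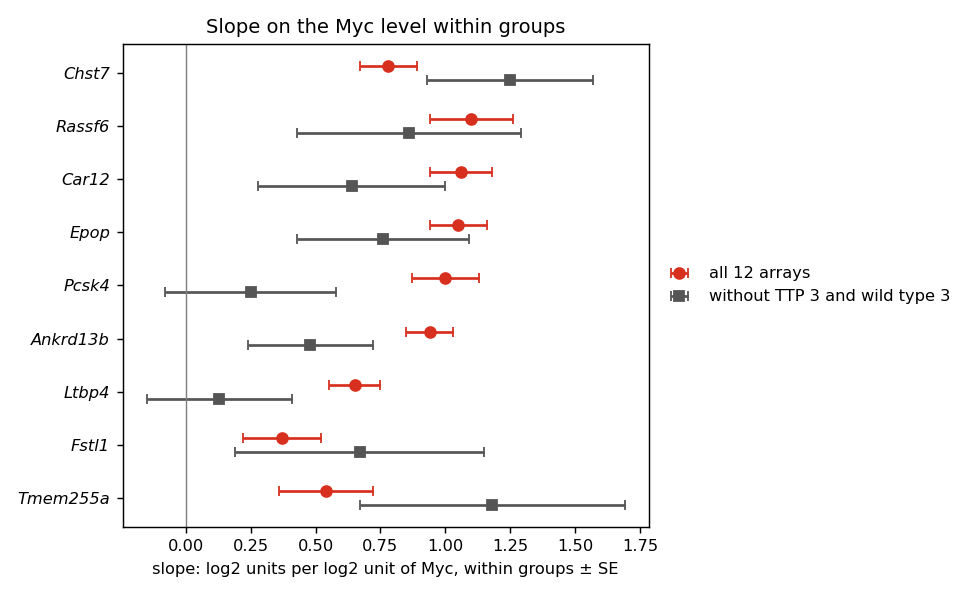
Slope of each gene (rows) on log2 Myc within groups ± SE (x axis), over all 12 arrays (circles) and without TTP 3 and wild type 3 (squares). All slopes lie above 0, and without these arrays the standard errors widen, with Pcsk4 and Ltbp4 nearest to 0.

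The 8 genes of most similar pattern outside the set, by Pearson r over 12 arrays with the mean profile of the 9, were Tma16 (0.991), a factor of the large ribosomal subunit, Eef1e1 (0.979), a part of the aminoacyl-tRNA synthetase complex, Cth (0.977), the cystathionine lyase of cysteine synthesis, Snhg6 (0.971), Erap1 (0.97), Utp25 (0.968), Knop1 (0.967) and Pnpt1 (0.966). Cth was the most like the set in its range, at 7.44 ± 0.40 on Myc TTP, 8.03 ± 0.81 on Myc, 4.26 ± 2.43 on TTP and 4.38 ± 2.20 on wild-type arrays. Myc itself had r = 0.963, and 344 tested genes (3.34%) had an r above 0.9. Since the genes were chosen as high with Myc, likeness of their profile to Myc follows in part from that choice.

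Textbook Myc targets moved with the 9 genes across arrays but over a smaller range. All 20 listed were above 0 in Myc over wild type (median 0.80) and in Myc TTP over TTP (median 0.91), where 0 of 20 passed. On the slope within groups 20 of 20 were called upward, beside 10.6% of all tested genes, with a median of 0.28, beside -0.05 over all genes. Ldha, lactate dehydrogenase A, had a slope of 0.29 ± 0.03 (limma adjusted p = 0.000863), Srm, spermidine synthase, 0.63 ± 0.07 (limma adjusted p = 0.00133) and Nolc1, a nucleolar phosphoprotein, 0.50 ± 0.06 (limma adjusted p = 0.00139). Without TTP 3 and wild type 3 these were 0.27, 0.30 and 0.39, and none passed, as was so for all 10286 genes.

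Relatives of the 9 genes that passed were mostly called downward, as were genes at large in the deposited scaling. Of 75 tested relatives 1 was called upward and 29 downward on the slope within groups, beside 10.6% of all tested genes upward and 28.3% downward. After quantile normalization the counts were 2 and 21, beside 2255 and 1995 of 10286 genes. With a common array median they were 6 and 22, beside 2120 and 1933. In Myc over wild type limma called 0 relatives higher and 14 lower, beside 0.467% of all tested genes higher and 10.6% lower (48 and 1087). Under 14 of the 22 other settings, quantile normalization and a common array median among them, 0 genes passed in that contrast. In Myc TTP over TTP, Myc TTP over Myc, TTP over wild type and the interaction 0 of the tested relatives passed, so the counts that follow are slopes within groups. Several of these lists lay near the 28.3% of all tested genes called downward, so their counts say little about relatives as such. Of 17 tested genes of glycosaminoglycan synthesis and sulfation other than Chst7, 1 was called upward and 5 downward (median -0.08). The sulfotransferase Chst15 had a slope of -0.31 ± 0.04 (limma adjusted p = 0.0019), the chain enzyme Csgalnact2 -0.33 ± 0.06 and Chsy1, chondroitin synthase, -0.18 ± 0.04. Of 13 Rassf and Hippo genes other than Rassf6, 0 were called upward and 3 downward, among them the kinase Lats2 at -0.37 ± 0.07 (limma adjusted p = 0.00304). Of 7 carbonic anhydrases and pH transporters other than Car12, 0 were called upward and 3 downward, led by Car13 at -0.63 ± 0.09 (limma adjusted p = 0.00179). Car1, the carbonic anhydrase of red cells, was at -1.02 ± 0.34 (limma adjusted p = 0.0346), and on the same arrays the mean log2 level of 5 erythroid markers ran from 4.52 to 6.38 on Myc TTP, 3.48 to 6.25 on Myc, 6.09 to 8.16 on TTP and 6.42 to 7.29 on wild-type arrays. The part of these cells in the Car1 slope was not tested.

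Of the chromatin, protease and TGF-β lists, the last kept its direction best across scalings. Of 16 Polycomb and Elongin genes other than Epop 0 were called upward and 5 downward, beside 28.3% of all tested genes downward. Among them were Lcor at -0.19 ± 0.04 (limma adjusted p = 0.00446) and Jarid2 at -0.16 ± 0.04. With a common array median 4 were called upward and 2 downward, so this list has no settled direction. Of 3 proprotein convertases other than Pcsk4 all 3 were called downward, with Furin, the general convertase of the secretory pathway, at -0.38 ± 0.07 (limma adjusted p = 0.00336), while after either other scaling 1 of the 3 was called. None of the 3 other Ankrd13 genes was called, and Ankrd13a was at -0.09 ± 0.05 (limma adjusted p = 0.144). Of 12 TGF-β ligands, binding proteins and receptors other than Ltbp4, 0 were called upward and 8 downward, and 8 and 7 downward under the other scalings. The receptors Tgfbr2 and Tgfbr1 had slopes of -0.38 ± 0.07 (limma adjusted p = 0.00329) and -0.23 ± 0.05, and the ligand Tgfb1 of -0.23 ± 0.05. Of 4 follistatin-like and SPARC family genes other than Fstl1, 0 were called upward and 2 downward, Igfbp7 at -1.06 ± 0.15 (limma adjusted p = 0.0019) and Sparc at -0.73 ± 0.12 (limma adjusted p = 0.00235). The mean log2 level of 6 endothelial markers was 4.1 to 4.87 on Myc TTP and 3.72 to 4.01 on Myc arrays. On TTP arrays it was 4.07 to 5.83, and on wild-type arrays 4.24 to 5.32. The part of such cells in the slopes of Igfbp7 and Sparc was not tested. None of the list genes named here passed without TTP 3 and wild type 3, as was so for all tested genes.

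Ltbp4 and Fstl1 are also products of stromal cells, so stromal markers were read on the same arrays. Of 12 markers, 2 to 4 were above the floor on Myc TTP arrays, 2 to 3 on Myc arrays, 3 to 5 on TTP arrays and 3 to 5 on wild-type arrays. Their mean log2 level, near the floor, was 4.08 to 4.45 on Myc TTP and 3.83 to 4 on Myc arrays. On TTP arrays it was 4.08 to 4.73, and on wild-type arrays 4.11 to 4.32. Their summed intensity was 1300 to 1340 on Myc TTP, 915 to 1450 on Myc, 646 to 1270 on TTP and 727 to 1030 on wild-type arrays. The mean was thus lower on Myc than on wild-type arrays, whereas the sum was not. Col3a1, Pdgfrb, Lum, Dcn and Postn were below the floor on all 12 arrays. Cxcl12 was at log2 5.87, 5.63 and 7.07 on Myc and 8.90, 8.73 and 7.61 on wild-type arrays. On Myc TTP arrays it was 7.05, 6.75 and 6.92, and on TTP arrays 7.47, 9.53 and 6.73. Alpl, which makes up much of the sum, was at 10.35, 10.23 and 9.43 on Myc and 7.39, 7.52 and 9.49 on wild-type arrays. On Myc 1 and Myc 2, where Ltbp4 and Fstl1 were highest, Cxcl12 was thus lowest and Alpl highest. The part of stromal cells in the levels of Ltbp4 and Fstl1 was not tested.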

How the data were processed

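RNA of B220-selected bone marrow cells was hybridised to 12 arrays. The values are intensity on a linear scale that the authors deposited, summarised per probe set with GCRMA (version not given) per the submitters' processing notes, and their array medians ran from 10.9 to 13.9. GCRMA normalizes between arrays, so a change in total RNA per cell is not seen. Scanner files were not used here. For arrays, their number limits the precision.

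Here log2 was taken with no pseudocount. Probe sets with 1 gene symbol (34958 of 45101, with 932 naming several genes and 9211 none) were named from the platform annotation, updated by Entrez identifier through RefSeq GRCm38.p6 (34754 found). Each of 18194 genes kept its probe set of highest mean, and 10287 with log2 above 4 on at least 3 of 12 arrays were tested. Limma 3.58.1 in R 4.3.3 (lmFit, eBayes with intensity trend) was fitted to 4 group means with 8 residual degrees of freedom, and for slopes with log2 Myc added, with 7. Adjusted p-values are Benjamini-Hochberg over all tested genes, two-sided. Errors beside differences are SE, beside means SD. Where a group mean lay below the floor, a fold is a bound against it. The code was tested on simulated data.

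The members and lists were chosen with earlier results of these data known. The genes named were the 9 members, Myc, Zfp36, the 8 genes of most similar profile, and from each list up to 3 called genes of smallest p or, with none called, up to 2 of largest difference. Of 18 same-numbered pairs of arrays 7 had residuals correlated above 0.1, from -0.651 to 0.821. All 3 pairs of TTP and wild type did (0.498, 0.664 and 0.821), and no other combination of groups had this in every pair.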

Additional observations from a re-analysis of the deposited data

How the results depend on the processing

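Leaving out 1 array at a time, the median of Myc over wild type ranged from 2.41 to 3.91, and the number of the 9 genes called in Myc TTP over TTP from 0 to 6 (6 without TTP 3, 5 without wild type 3). The median difference of TTP over wild type ranged from -0.44 to 1.11 and changed sign, and so did Tmem255a in Myc TTP over TTP, from -0.46 to 0.73. Without TTP 3 and wild type 3 the Myc over wild type median was 3.91, with 6 genes called in Myc TTP over TTP and 0 slopes. Without the 4 arrays numbered 3 it was 4.26, with 8 called in Myc TTP over TTP (4682 of all 10287 genes, 23.7% higher), 4 in Myc TTP over Myc, 1 in the interaction and 0 slopes, and the slopes of Pcsk4 and Ltbp4 were -0.35 and -0.44. Both settings were chosen with earlier results known, fewer arrays remain in them, and the cause of the change in calls was not tested. Over all genes the slope called 4004, against 302 without TTP 3. Quantile normalization put the median of all genes at 0.05 in Myc TTP over Myc (0.27 as deposited) and at 0.04 in Myc over wild type (-0.21 as deposited). With the replicate block, 0 of the 9 genes were called in Myc TTP over TTP and 9 slopes, against 8 without it, and no other call count of the 9 changed, TTP over wild type included, the contrast in which every same-numbered pair correlated. With a floor of log2 6 Chst7 was not tested and 7 slopes were called. No filter, the probe set of largest SD, a common array median, a pseudocount of 8 and no intensity trend gave 0 of the 9 genes called in the 4 tested contrasts and 7 to 9 slopes.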
